A study of Mus musculus with 4 samples.

Results

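Mouse embryonic fibroblasts (MEFs) were compared with the mouse embryonic stem (ES) cell line CGR8.8 on the 2 of the study's 4 arrays that carried MEF RNA in red (Cy5) and ES RNA in green (Cy3). The arrays were taken by their titles, and all 41174 gene probes on them, control spots left aside, entered the description. The study set fibroblasts and an induced pluripotent stem (iPS) cell clone against this ES line. ES and iPS cells had been kept undifferentiated with 1000 IU/ml of leukemia inhibitory factor (LIF), the MEFs had gone through several passages before harvest, and the clone was harvested 30 days after transduction. The labels give the MEFs no strain, embryonic age or passage number, and the iPS cells are 1 clone. They call the 2 MEF arrays biological replicates and do not say whether 2 cultures were grown, so the p-values rest on the spread within the pairs of arrays, shared with the iPS pair in 1 fit, and that spread may be technical. No dyes were swapped and all arrays lay on 1 slide read in 1 scan, so dye and slide position cannot be told apart from the group. ES RNA is the reference on every array, and the test of a ratio against 0 leaves out the ES cells' own spread between cultures.

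Fibroblasts are connective tissue cells that secrete and remodel collagen matrix, pull on it through actin bundles anchored at focal adhesions, and answer injury with cytokines. ES cells divide rapidly with a very short first gap phase, hold together as an epithelial colony, and rely on threonine and glycine breakdown to feed the folate cycle. These states therefore differ in organelles, metabolism and signalling as well as in the transcription factors and collagens that usually mark them, and those other functions are described here with 46 lists of genes.

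Values are log2 ratios of MEF over ES signal, so that 1 is a 2-fold higher and -1 a 2-fold lower level in MEFs. Errors are standard errors (SE) of a limma fit with n = 2 arrays. A gene was called higher or lower at a Benjamini-Hochberg adjusted p under 0.05 in limma with at least a 2-fold change. Between 62.6% and 64.0% of green spots and between 61.6% and 63.5% of red spots were well above background on the 4 arrays, and the log2 ratios of the 2 MEF arrays correlated at 0.991 across 17172 tested genes, which are not independent replicates. Their median absolute difference was 0.0866.

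The labelled cell types were checked by their markers. All 8 measured ES markers were called lower in MEFs (median -3.58) and all 10 measured fibroblast markers were called higher (median 4.26). The ES channel held signal for these genes too: each of the 10 fibroblast markers was well above background in ES RNA on all 4 arrays. On the 2 MEF arrays their summed normalised intensity was 23700 to 23800 in the ES channel against 508000 to 514000 in the MEF channel. The sums below are from these 2 arrays too. Of these 10 markers, 6 were called lower in the iPS clone than in ES cells, and what this ES signal does to the MEF ratios was not tested. Markers of other cell types were read as well, and whether such cells were present was not tested. Of 11 measured macrophage markers 5 were called higher and 1 lower, and their summed intensity was 8470 to 8950 in MEFs against 2020 to 2050 in ES cells. The macrophage genes Adgre1, Tyrobp, Csf1r, Fcgr1 and Ptprc were well above background in MEFs and in none of the 4 ES channels. Adgre1 was at least 2.44-fold and Tyrobp at least 2.00-fold higher, and the other three were not called. Skeletal muscle markers (4 of 7 called higher, Myog at least 3.55-fold higher) summed to 33200 to 33800 in MEFs against 15700 to 16600, and smooth muscle and pericyte markers (6 of 8 higher, 1 lower) to 332000 to 357000 against 50400 to 54100. Endothelial markers summed to 4890 to 5130 against 4760 to 4810 (1 of 8 higher, 2 lower). The 1 called higher was at 5.07, and 5 of the 8 were well above background on both MEF arrays. Pecam1 and Cldn5 were not well above background in MEFs, and Cdh5 was well above it in neither RNA. Neuron and glia markers (3 of 9 higher, 3 lower) summed to 6220 to 6430 in MEFs against 8590 to 8650. Keratinocyte and epithelial markers (0 of 8 called higher by limma, 1 at an unadjusted p under 0.05, and 5 lower) summed to 18500 to 19400 against 409000 to 420000, with Grhl2 and Ovol1 not well above background in MEFs; another probe of Grhl2 gave -0.41. Blood markers (0 of 6 called higher by limma, 1 at an unadjusted p under 0.05, and 2 lower) summed to 633 to 655 against 1430 to 1460. In these bulk samples fewer cells of a type and less RNA per cell cannot be told apart.

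Of the 17172 genes, 27.8% (4767) were called: 2404 were higher in MEFs (14.0%) and 2363 were lower (13.8%). Called genes of the function lists had adjusted p-values from 1.06e-08 to 0.00548 (limma, Benjamini-Hochberg), and the SE of called genes had a median of 0.05. No called gene had opposite signs on the 2 MEF arrays. Of 1893 called genes with several tested probes, 1169 had another probe that was not called or was called the other way, and 57 of 129 such genes named by rule did. The median of all genes was -0.01, with 5% of genes below -1.78 and 5% above 1.88. The split of the calls depended on centring. Higher genes made up 50.4% of calls after loess and 69.5% when each array was only centred on its median, a setting that moved the median of all genes to 0.19. The count also depended on the background fit: 177 genes were called when it was fitted over all spots, and 4716 when 14 spots of extreme local background on MEF array 1 were kept out of it, a setting added after seeing the data. Of the function lists below in which limma called no member in 1 direction, fitting the deposited log ratios instead gave the same 0, except for matrix proteases, where it called 1 lower.

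**Figure D1:**
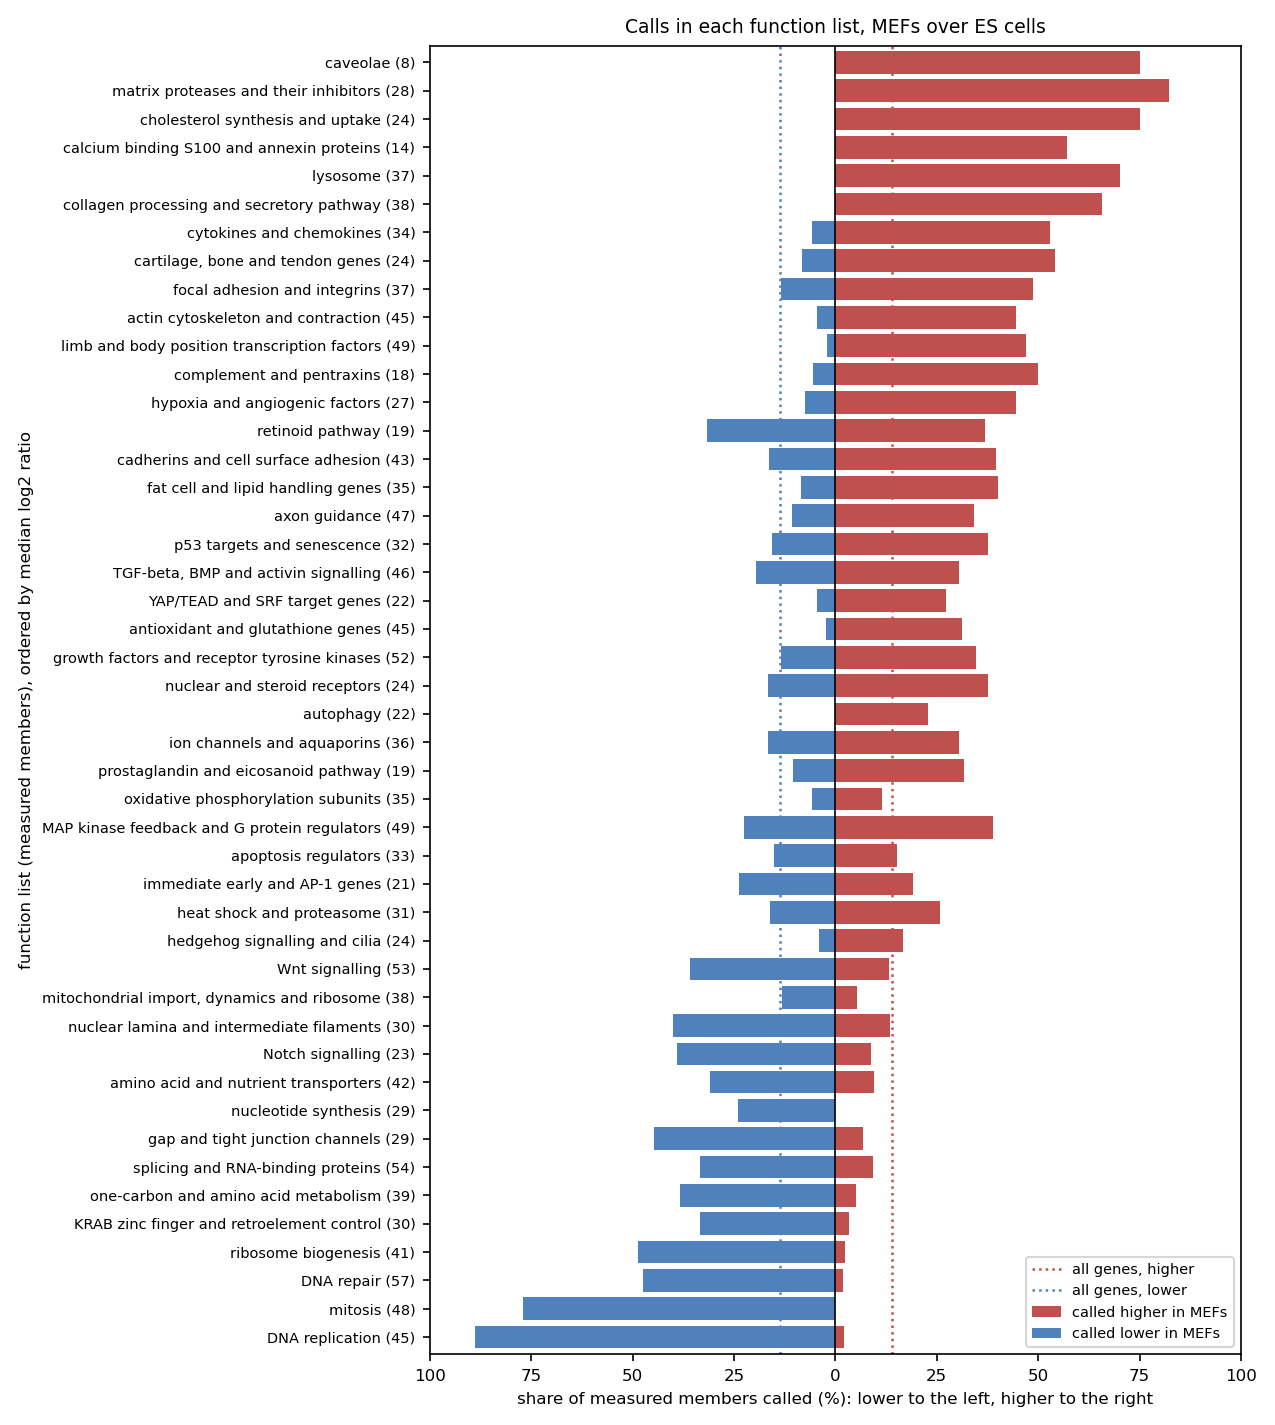
Share of the measured members of each of 46 function lists called higher (red bars, right) or lower (blue bars, left) in MEFs than in ES cells, in percent, ordered by the list's median log2 ratio; dotted lines mark the shares over all genes tested, 14.0% higher and 13.8% lower. Caveolae, matrix proteases, cholesterol synthesis, S100 and annexin proteins and the lysosome stand at the top with no member called lower, and DNA replication and mitosis at the bottom.

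Among the 15 largest rises were genes for surface, secreted and regulatory proteins. Cavin2, a coat protein of caveolae whose probe lies at chr1:51247352-51247411 (mm8, the build of the array annotation), read 7.53 and 7.81 on the 2 arrays, a 204-fold higher level (7.67 ± 0.07 SE). Tm4sf1, a tetraspanin-like surface protein (chr3:57375576-57375635), read 7.36 and 7.58, 177-fold higher. Both genes were well above background in ES RNA too, so these folds were measured on both sides. Others of the 15 were Fibin (6.91), the chloride channel regulator Clca3a1 (6.37), the mineralisation inhibitor Mgp (6.08), the thrombin receptor thrombomodulin Thbd (5.88), the interleukin 33 receptor Il1rl1 (5.82) and the potassium channel subunit Kcnab1 (5.50). Of these, Mgp, Il1rl1 and Kcnab1 were measured in ES cells on 2 of 4 arrays and Clca3a1 on 1 of 4. Xist, the noncoding RNA of X inactivation, was not well above background in ES RNA and was at least 45.9-fold higher in MEFs, with another probe at 0.91. Another probe of Kcnab1 gave 0.85.

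The largest falls were of another kind. The mitochondrial threonine dehydrogenase gene Tdh (chr14:62446600-62446659) read -5.77 and -5.56, 50.8-fold lower (-5.67 ± 0.06 SE). The Wnt target and zinc finger gene Sp5 (chr2:70278470-70278529) read -5.90 and -5.89, 59.5-fold lower, and the neurofilament gene Nefl read -5.94 and -5.71. Further genes among the 15 largest falls were the non-classical class I gene H2-Bl (-5.09), Gbp3, a guanylate-binding protein (-5.22), Hook1, a microtubule linker (-4.87), the ubiquitin ligase gene Trim67 (-4.83), the growth factor gene Fgf8 (-4.77) and Bspry (-4.73). The iPS clone, measured against the same ES RNA, read -5.47 for Sp5, -4.86 for Trim67 and -4.79 for Fgf8, within 0.43 of the MEF value in each case, and none of these 3 was called between MEFs and iPS cells. It read 1.21 for Tdh.

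Most lysosomal genes were higher. The lysosome is the acid compartment in which cathepsins and other hydrolases digest proteins, lipids and matrix that the cell has taken up. Of 37 measured members 26 were called higher, with a median log2 ratio of 1.38, and limma called none lower (3 were lower at an unadjusted p under 0.05). Ctsh, an aminopeptidase cathepsin, read 3.57 and 3.62, 12.1-fold higher. Ctsb, a cysteine cathepsin, read 2.71 and 2.61. The membrane protein gene Lamp2 read 2.25 and 2.34. The 2 arrays lay close together for these 3 genes. Another probe of Lamp2 gave 0.35, so for this gene the rise rests on part of the probes. Other probes of Glb1 and Gla gave 0.87 and 0.59. Enzymes of glycolipid and glycan breakdown moved with them, among others Glb1 (1.80), Gla (1.48), Hexa (1.46), Gaa (1.37) and Sgsh (1.38). The transcription factor gene Tfeb, a regulator of lysosomal genes, read -0.23 and the acid channel gene Mcoln1 -0.37, and neither was called. Ctss, a cathepsin of antigen-presenting cells, was not well above background in ES RNA and at least 4.54-fold higher. Of 11 macrophage markers 5 were called higher and 1 lower, as given above, and their part in the lysosomal ratios was not tested.

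A palindromic E-box, the letters TCACGTGA, is the element through which Tfeb is known to act. It was searched in the 250 bases before the start of each gene in the RefSeq promoter table (GRCm38.p6), a search added after seeing the data. It was found in 4 of 31 measured lysosomal genes with a promoter in the table (12.9%) and in 184 of all 11452 tested genes with one (1.61%). A match is a description of letters and no binding was measured. The motif shares here and below cover list members whatever their call. They are therefore no result of the comparison of MEFs with ES cells. Promoters of 2 called genes are shown 5′ to 3′ with the match in capitals.
Ctsa, chr2:164833523-164833772, plus strand: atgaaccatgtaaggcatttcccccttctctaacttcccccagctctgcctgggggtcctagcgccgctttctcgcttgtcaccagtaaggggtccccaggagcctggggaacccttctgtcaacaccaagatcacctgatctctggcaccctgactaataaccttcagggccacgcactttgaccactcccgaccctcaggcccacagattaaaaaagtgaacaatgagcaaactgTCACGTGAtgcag
Gla, chrX:134601006-134601255, minus strand: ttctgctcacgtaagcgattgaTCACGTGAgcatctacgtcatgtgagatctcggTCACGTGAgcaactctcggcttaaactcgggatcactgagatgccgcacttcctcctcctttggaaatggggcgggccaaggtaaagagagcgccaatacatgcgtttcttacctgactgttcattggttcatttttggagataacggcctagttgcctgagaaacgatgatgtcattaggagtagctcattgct
Ctsa, the protective protein of the lysosomal galactosidase, read 2.16 (fitted), and Gla, alpha-galactosidase, 1.48. The Gla window holds 2 matches and the Ctsa window 1.

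Most genes of cholesterol synthesis and uptake were higher. The pathway turns acetyl-CoA into mevalonate, isoprenoids, squalene and then sterol, and is set by the sterol-sensing factor SREBP2 (Srebf2). Of 24 measured members 18 were called higher (median 1.81) and limma called none lower (0 were lower at an unadjusted p under 0.05). In the mevalonate branch, Hmgcs1 read 2.57 and 2.50, Idi1 read 2.40 and 2.24 and Fdps 2.10 and 2.12. In the sterol branch, Fdft1 (2.00), Sqle (1.52), Lss (1.57), Cyp51 (1.89), Tm7sf2 (2.03), Msmo1 (2.03), Nsdhl (2.01), Hsd17b7 (2.27) and Sc5d (2.06) were called higher. The feedback gene Insig1 read 2.01 and 2.20. Among the 6 members not called were Pmvk (0.52), Ebp (0.62), Insig2 (0.75) and Srebf2 itself (0.64). The probes of some genes disagreed. Another probe of Srebf2 was called higher at 1.44. Other probes gave 0.84 for Hmgcs1, 0.52 for Fdft1 and 0.30 for Nsdhl, none of them called. The iPS clone was higher than ES cells as well in 7 of these 24 genes (list median 0.73), both groups being set against the same ES RNA. MEFs were called higher than the clone in 11 of 24, among others Hsd17b7, at 2.89 in MEFs minus iPS cells, whereas Hmgcs1 (0.38) and Idi1 (0.76) were not called in that difference.

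The CCAAT box, the 5 letters at which the factor NF-Y binds beside SREBP, stood on either strand in all 16 measured genes of this list that have a promoter in the table, against 40.1% of the 11452 tested genes. This search was also added after seeing the data. The promoters of the 2 called genes below hold 3 matches each, in capitals (CCAAT or its reverse complement).
Hmgcs1, chr13:119690101-119690350, plus strand: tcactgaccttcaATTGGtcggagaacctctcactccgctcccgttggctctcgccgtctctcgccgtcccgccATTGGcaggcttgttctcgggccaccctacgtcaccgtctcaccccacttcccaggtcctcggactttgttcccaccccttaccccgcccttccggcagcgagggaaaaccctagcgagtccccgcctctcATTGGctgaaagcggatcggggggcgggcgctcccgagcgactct
Hsd17b7, chr1:169969206-169969455, minus strand: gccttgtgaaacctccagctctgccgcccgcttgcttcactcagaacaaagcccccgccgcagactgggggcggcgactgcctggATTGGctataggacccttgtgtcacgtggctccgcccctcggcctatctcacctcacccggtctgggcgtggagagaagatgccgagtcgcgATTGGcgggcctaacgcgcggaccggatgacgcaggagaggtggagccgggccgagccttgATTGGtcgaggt
The same box stood in 28 of 39 promoters of the mitosis list (71.8%), of whose genes none was called higher and most were called lower.

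**Figure D2:**
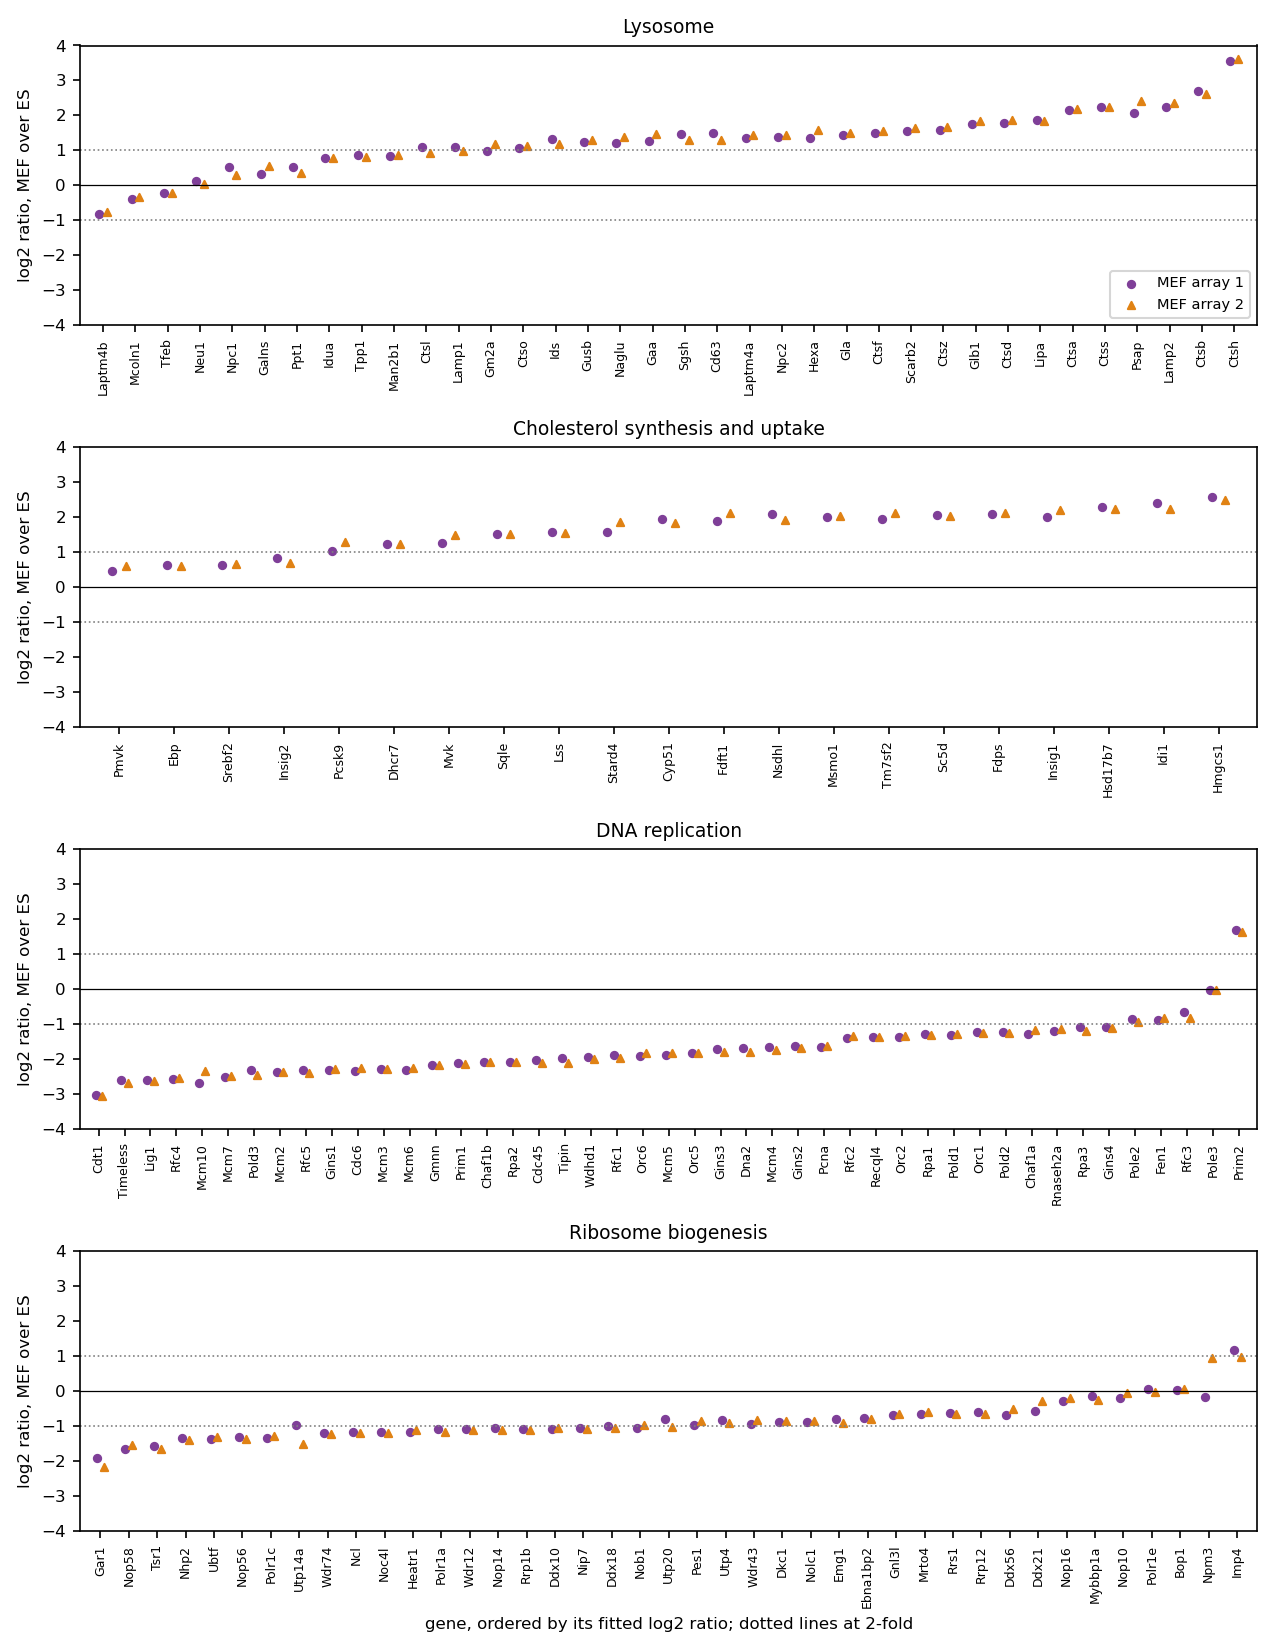
Log2 ratio of MEF over ES on each of the 2 MEF arrays (circles, array 1; triangles, array 2) for measured members of the lysosome, cholesterol, DNA replication and ribosome biogenesis lists, with 4 members of the first 2 lists not shown, ordered by fitted ratio; dotted lines mark 2-fold. Lysosomal and cholesterol genes lie mostly above 1, and 40 of 45 replication genes lie below -1, Prim2 being the exception that was called higher.

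Most genes for making and exporting collagen were higher. Of 38 measured genes for collagen-modifying enzymes, folding factors and vesicle transport, 25 were called higher (median 1.32) and limma called none lower (1 was lower at an unadjusted p under 0.05). The prolyl hydroxylase gene P3h3 read 3.47 and 3.41, P4ha1 read 2.78 on both arrays, and the chaperone genes Fkbp7 and Fkbp14 were fitted at 2.76 and 2.70. Creb3l2, a membrane-bound factor that drives secretory genes, read 3.57 and 3.51. In the transport step Copz2, a coat subunit of Golgi vesicles, read 3.29 and 3.51, the retrieval receptor gene Kdelr3 2.84 and 2.81, and Sec23a was fitted at 2.27. Stress-response factors of the same compartment were not called: Xbp1 was at 0.48, Atf4 at -0.92 and Ddit3 at 0.11.

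Most enzymes that cut the matrix, with their inhibitors, were higher. Of 28 measured proteases and inhibitors 23 were called higher (median 2.01) and limma called none lower (2 were lower at an unadjusted p under 0.05, and 1 was called without MEF replicate 2). Mmp3, stromelysin, read 4.42 and 4.18 and was not well above background in ES cells, which makes it at least 18.8-fold higher. The aggrecanase gene Adamts5 read 3.99 and 3.98, the collagenase cathepsin gene Ctsk 3.76 and 3.72, and the inhibitor gene Serpinf1 3.73 and 3.77. Ctsk was measured in ES cells on 1 of 4 arrays. Mmp3 was not well above background in iPS RNA either, so it was tested because of its MEF signal. A filter that kept only probes bright in each channel on all 4 arrays left 17 of the 28 genes. Of these 13 were higher and 0 lower (median 2.08).

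Genes for caveolae and for the contractile cytoskeleton had few lower calls. Caveolae are membrane pits that buffer stretch: 6 of 8 measured genes were called higher (median 2.94) and limma called none lower (0 at an unadjusted p under 0.05). With only probes bright in each channel on all 4 arrays 5 remained, 3 higher and 0 lower (median 2.32). Beside Cavin2, Cav1 read 4.47 and 4.43, Cavin3 3.54 and 3.55 and Ehd2 2.94 and 3.07. For actin and contraction, 20 of 45 were called higher and 2 lower (median 0.96). Mylk, the kinase that starts myosin contraction, read 4.35 and 4.33, Myl9, a myosin light chain, 3.76 and 3.74, and Lmod1, an actin nucleator, 3.09 and 3.16. Mylk was measured in ES cells on 2 of 4 arrays. The 2 called lower were Csrp2 (-1.52 and -1.56) and Vil1, an actin bundler of microvilli (-1.44 and -1.28), which was not well above background in MEFs and at least 2.43-fold lower. Smooth muscle markers moved with these genes, as given above, and their part was not tested.

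The CArG box is the core element of serum response factor. It was found in 7 of 40 measured actin genes with a promoter, called or not (17.5%), against 1.55% of all 11452. The promoters of Myl9 and of Lima1, an actin cross-linker (2.51 and 2.39 on the 2 arrays), show it in capitals.
Myl9, chr2:156775214-156775463, plus strand: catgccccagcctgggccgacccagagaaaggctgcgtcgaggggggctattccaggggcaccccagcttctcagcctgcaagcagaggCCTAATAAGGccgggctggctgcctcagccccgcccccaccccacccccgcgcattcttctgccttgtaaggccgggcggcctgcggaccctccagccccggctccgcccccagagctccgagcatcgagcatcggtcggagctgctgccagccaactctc
Lima1, chr15:99820150-99820399, minus strand: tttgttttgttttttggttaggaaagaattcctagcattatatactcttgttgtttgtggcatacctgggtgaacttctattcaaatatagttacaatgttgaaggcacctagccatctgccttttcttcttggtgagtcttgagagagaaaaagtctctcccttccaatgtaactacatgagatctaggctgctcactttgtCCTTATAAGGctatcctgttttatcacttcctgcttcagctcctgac
The gene of the factor itself, Srf, read -0.05. Among 22 measured targets of YAP/TEAD and of serum response factor, 6 were called higher and 1 lower, with Axl (2.43 and 2.48), Lats2 (2.16 and 2.24) and Ccn2 (1.78 and 1.74) up and Ajuba (-2.49 and -2.41) down. Another probe of Lats2 gave 0.81. The TEAD motif GGAATG stood in 9 of 16 of their promoters (56.2%) against 13.2% of all. The list was made of targets of these factors, so this share is no result of the comparison of MEFs with ES cells.

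Adhesion genes were called in both directions. Of 37 focal adhesion and integrin genes 18 were higher and 5 lower (median 0.96). Among integrin chains, Itgb3 (2.96 on both arrays), Itga4 (2.85 and 2.82), Itgb5 (2.42), Itgav (1.81) and Itgb1 (1.75) rose. The chains Itga3 (-2.33 and -2.09), Itga6 (-1.30) and Itgb4 (-1.40 and -1.32) fell. Of the laminins, Lama2 was not well above background in ES RNA and at least 11.4-fold higher, Lama4 was at 2.48, and Lama5 read -2.44 and -2.59. Other probes gave 0.69 for Itgb3, 0.45 for Itgav, -0.27 for Itgb4, and 0.46 and -0.44 for Itga6. Of 43 cadherins and other surface adhesion genes 17 were higher and 7 lower, with Ly6a (4.12 and 4.38), Pcdh19 (4.18 and 4.08) and Cd44 (3.51 and 3.65) at the top. Another probe of Cd44 gave 0.20. Of 29 gap and tight junction genes 2 were higher and 13 lower (median -0.68), with the polarity gene Crb3 not well above background in MEFs and at least 22.3-fold lower. The connexin gene Gjb2 rose (1.49 and 1.47).

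Some related genes differed in direction. In the nuclear lamina, Lmna, the lamin of stiff and differentiated nuclei, read 2.28 and 2.47, while Lmnb1 read -2.33 and -1.98 and Lmnb2 -1.15 on both arrays. The SE of Lmnb1 was 0.17, the widest of the 3. In retinoic acid metabolism Cyp26b1 rose (3.79 and 3.64) and Cyp26a1, the other degrading enzyme, fell (-4.36 and -4.24). The synthetic enzymes Aldh1a1 (2.08 and 2.10) and Aldh1a2 (1.49 and 1.55) rose, and Aldh1a3 (-2.62 and -2.48) and Rdh10 (-2.86 and -2.95) fell. The retinoid list as a whole had 7 genes higher and 6 lower of 19. Among splicing factors Mbnl1 (3.55 and 3.57) and Mbnl2 (2.92 and 2.98) rose while Mbnl3 (-0.79) was not called, and the epithelial regulators Esrp1 (at least 5.84-fold lower) and Esrp2 (-1.43) fell. Other probes of Mbnl1 and Mbnl2 gave 0.75 and 0.02, and others of Esrp2 and Lmnb2 -0.77 and -0.83. Among aquaporins, Aqp1 (3.74 and 3.82, measured in ES cells on 2 of 4 arrays) and Aqp5 (3.14 and 3.16) rose and Aqp3 (-3.23 and -3.13) fell. These families were put together after their values were seen, so they do not show how common such differences are.

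**Figure D3:**
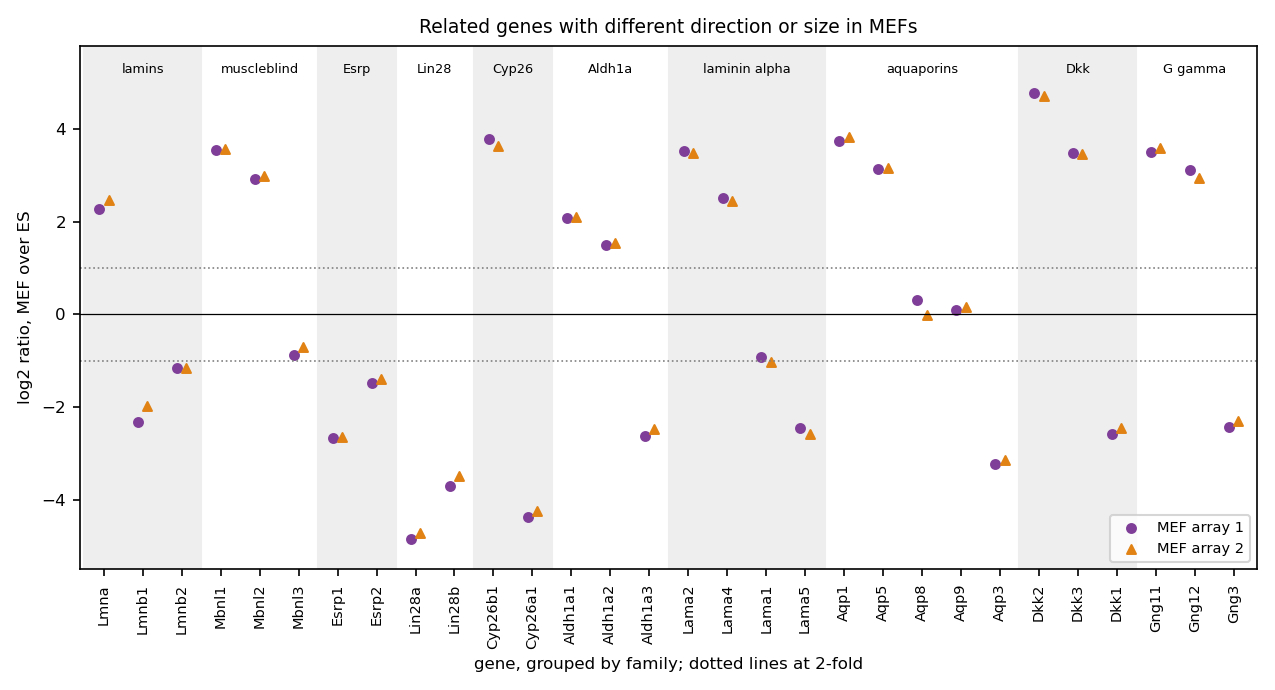
Log2 ratio of MEF over ES on each of the 2 MEF arrays (circles, array 1; triangles, array 2) for members of 10 gene families, shaded alternately; dotted lines mark 2-fold. The families were chosen after their values were seen; Lmna lies above 1 and Lmnb1 below -1, and likewise Cyp26b1 and Cyp26a1.

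Inflammatory signals had many more higher than lower calls. Of 34 cytokine and chemokine genes and receptors 18 were called higher and 2 lower (median 1.23), 7 of them by at least 16-fold. A gene bright only in MEFs also counts as measured. A stricter filter kept only probes bright in each channel on all 4 arrays, and so dropped genes dim in iPS cells too. It left 21 of these genes, 9 higher and 2 lower (median 0.67). The monocyte attractants Ccl7 and Ccl2 read 5.14 and 5.29, and 4.58 and 4.77, and the oncostatin M receptor gene Osmr read 4.76 and 4.81. Cxcl16 fell (-3.35 and -3.29). Of 18 complement and pentraxin genes 9 were higher and 1 lower, with Masp1 at 3.96 and 3.98 and Ptx3 at 2.68 and 2.88. Another probe of Masp1 gave 0.62. In the prostaglandin pathway 6 of 19 were higher and 2 lower: the phospholipase gene Pla2g4a read 4.31 and 4.27, the cyclooxygenase gene Ptgs2 3.35 and 3.20 and the synthase gene Ptges 3.41 and 3.50. Alox15 was at least 5.47-fold lower. The stricter filter left 14 complement and pentraxin genes, 6 higher and 1 lower. It left 11 prostaglandin genes, 4 higher and 1 lower. Of 27 hypoxia and angiogenic genes 12 were higher and 2 lower, with Adm (4.38 and 4.34) and Thbs2 (4.10 and 4.30) highest and the glucose transporter gene Slc2a1 lowest (-2.50 and -2.41). Of the 11 macrophage markers given above 5 were called higher and 1 lower. With the stricter filter 4 of these markers remained, 2 higher and 1 lower (median 0.06). Their part in the cytokine and complement ratios was not tested.

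Growth factor genes were called in both directions. Of 52 growth factors and receptor tyrosine kinases 18 were higher and 7 lower. With the stricter filter 37 of them remained, 12 higher and 4 lower. The collagen receptor gene Ddr2 read 4.75 and 4.87, the keratinocyte growth factor gene Fgf7 was at least 15.9-fold higher, and Vegfd read 3.90 and 4.04, while Pdgfb read -2.64 and -2.50. Of 46 genes for TGF-beta, BMP and activin signalling 14 were higher and 9 lower. The activin subunit genes Inhbb (5.66 and 5.69) and Inhba (4.16 and 4.25), the ligand gene Tgfb3 (4.56 and 4.72), the receptor gene Tgfbr2 (3.77) and the latency proteins Ltbp2 (4.01) and Ltbp3 (3.94) rose. Nodal (-3.97 and -3.78), its inhibitor Lefty2 (-4.21 and -4.02) and Acvr2b (-2.74), a receptor for activin and Nodal, fell. Tgfb1 (0.24), Smad2 (0.81), Smad3 (0.59) and Smad4 (-0.12) were not called. Another probe of Inhbb gave 0.96.

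Wnt and Notch genes had more lower than higher calls. Of 53 Wnt genes 7 were called higher and 19 lower (median -0.25), or 11 and 15 with a median of -0.05 under median centring. Of the ligands, Wnt3 read -4.17 and -4.08, and Wnt6 (-3.60) and Wnt8a (-3.59) fell, whereas Wnt2 rose (3.10 and 3.15). The nuclear factors Lef1 (-3.77) and Tcf7 (-3.40) and the feedback genes Axin2 (-2.96), Nkd1 (-2.47), Notum (-1.41) and Rnf43 (-1.06) fell, while Ctnnb1, the signal carrier beta-catenin, was at -0.04. Of the secreted inhibitors Dkk2 (4.78 and 4.72), Dkk3 (3.49 and 3.47) and Sfrp1 (1.96 and 2.12) rose and Dkk1 (-2.52) fell. Other probes of Sfrp1 and Nkd1 gave 0.74 and -0.73. The iPS clone was also lower than the shared ES RNA for Wnt3 (-4.14) and Axin2 (-3.67). Of 23 Notch genes 2 were higher and 9 lower (median -0.54), with the ligands Dll3 (-3.30 and -3.12), Jag2 (-2.79 and -2.66) and Dll1 (-2.63 and -2.45) lowest and Dlk1 (2.22 and 2.20) highest. Of 24 hedgehog and cilia genes 4 were higher and 1 lower, and of 47 axon guidance genes 16 and 5, with Sema3a at least 8.60-fold higher and Slit2 at 3.0 and 2.92. With the stricter filter 34 axon guidance genes remained, 10 higher and 5 lower. Of 49 MAP kinase feedback and G protein genes 19 were higher and 11 lower, and of 21 immediate early genes 4 and 5 (5 and 3 under median centring).

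Regulators of body position had many more higher than lower calls. Of 49 limb and body position transcription factors 23 were called higher and 1 lower (median 0.95). With the stricter filter, keeping probes bright in each channel on all 4 arrays, 28 remained, 16 higher and 1 lower (median 1.21). The orphan receptor gene Nr2f2 read 4.70 and 4.82, Osr1 4.33 and 4.44, Lhx9 3.78 and 3.82 and Irx1 3.54 and 3.73. Pitx1, the hindlimb factor, was at 3.44 and Tbx4, its partner in the hindlimb, at 0.58 without a call. The forelimb factor Tbx5 was not well above background in ES RNA and at least 2.82-fold higher. Another probe gave 0.61 for Lhx9 and 0.99 for Irx1. Of 24 cartilage, bone and tendon genes 13 were higher and 2 lower (median 1.15), with the tendon gene Tnmd at least 29.0-fold higher. Tnmd was not well above background in ES or iPS RNA, so it was tested because of its MEF signal. With the stricter filter 15 of these genes remained, 6 higher and 2 lower, and the median fell to 0.21. Of 35 fat and lipid handling genes 14 were higher and 3 lower, with Ebf3 (4.02 and 3.97) and the fatty acid carrier gene Fabp4 (3.44 and 3.39) at the top and Apoc1 (-3.43 and -3.36) at the bottom. Of 24 nuclear receptors 9 were higher and 4 lower: the glucocorticoid receptor gene Nr3c1 read 1.85 on both arrays (other probes 0.69 and 0.73) and the germ cell nuclear factor gene Nr6a1 -4.56 and -4.45. Of 14 S100 and annexin genes 8 were higher and none lower in limma (1 at an unadjusted p under 0.05).

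DNA replication had the largest share of called members among the 46 function lists. Of 45 measured genes 40 were called lower and 1 higher (median -1.86), against 13.8% lower over all genes. The licensing factor Cdt1 read -3.05 and -3.06, the fork protein Timeless -2.61 and -2.69, DNA ligase Lig1 -2.60 and -2.63 and the clamp loader subunit Rfc4 -2.57 and -2.54. Each subunit of the replicative helicase was lower: Mcm2 (-2.38), Mcm3 (-2.29), Mcm4 (-1.69), Mcm5 (-1.86), Mcm6 (-2.29) and Mcm7 (-2.50). The 2 primase subunits parted: Prim1 read -2.11 and -2.16 and Prim2 1.68 and 1.63. In the iPS clone, over the same ES RNA, Prim1 read 0.67 and Prim2 2.68. Members that were not called were Pole2 (-0.91), Pole3 (-0.03), Rfc3 (-0.75) and Fen1 (-0.87). Under median centring 30 of the 45 were called lower.

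The E2F motif, spelled TTTGGCGC or TTTCCCGC and searched on both strands, stood in 5 of 36 promoters of measured replication genes (13.9%), in 1 of 39 of the mitosis list (2.56%) and in 2.52% of all 11452. The promoters of 2 helicase subunits are shown with it in capitals.
Mcm6, chr1:128359706-128359955, minus strand: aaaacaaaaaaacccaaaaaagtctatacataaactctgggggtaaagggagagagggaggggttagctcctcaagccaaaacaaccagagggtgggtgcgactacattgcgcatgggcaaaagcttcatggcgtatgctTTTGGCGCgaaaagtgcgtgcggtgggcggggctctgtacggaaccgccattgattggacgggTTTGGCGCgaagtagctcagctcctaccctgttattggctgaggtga
Mcm7, chr5:138171884-138172133, minus strand: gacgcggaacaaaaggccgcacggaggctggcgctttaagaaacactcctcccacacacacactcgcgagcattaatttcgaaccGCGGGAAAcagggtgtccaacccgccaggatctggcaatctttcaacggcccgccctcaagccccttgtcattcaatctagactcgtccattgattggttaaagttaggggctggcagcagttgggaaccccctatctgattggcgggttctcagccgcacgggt
Mcm6 holds 2 matches and Mcm7 holds 1, on the other strand.

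Called genes of mitosis and repair were lower, with 1 exception. Of 48 mitosis genes 37 were called lower (median -1.42) and none higher in limma (0 at an unadjusted p under 0.05). The transcription factor gene Mybl2 read -2.78 and -2.66, and the kinetochore genes Cenph (-2.47 and -2.66), Ndc80 (-2.37 and -2.69) and Spc24 (-2.42 and -2.43) fell. The single tested probe of the mitotic kinase gene Cdk1 read -0.18 and -0.01 and was not called, although its partners Ccnb1 and Ccnb2 were both at -1.89. Of 57 repair genes 27 were lower and 1 higher (median -0.95): Fancd2 read -3.40 and -3.45 and Brca1 -2.96 and -3.04. Another probe of Brca1 gave -0.88. The excision repair gene Ercc1 rose (1.12 and 1.17). Under median centring 25 of the 48 mitosis genes were called lower and 0 higher. Of the 57 repair genes 24 were then lower and 2 higher.

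Genes for making ribosomes, messenger RNA and nucleotides had more lower than higher calls. Of 41 ribosome biogenesis genes 20 were called lower and 1 higher (median -0.92). The pseudouridylation complex fell at Gar1 (-1.91 and -2.17) and Nhp2 (-1.36 and -1.40), and the box C/D proteins Nop58 (-1.67 and -1.56) and Nop56 (-1.35) fell as well. Polymerase I was lower at Polr1a (-1.14) and Polr1c (-1.32), and so was its activator Ubtf (-1.36). Other probes of Nop56 and Polr1a gave -0.52 and -0.50. These counts rest on the centring: under median centring 3 of the 41 were lower, although the list's median stayed negative at -0.47 beside an all-gene median of 0.19. Of 54 splicing and RNA-binding genes 18 were lower and 5 higher (10 and 5 under median centring), with Hnrnpc (-1.91), Snrpb (-1.80), Prpf4 (-1.58) and Srsf1 (-1.26) among the core factors that fell. In nucleotide synthesis 7 of 29 were lower and none higher in limma (6 at an unadjusted p under 0.05; 1 was called higher without MEF replicate 1), and under median centring 3 were lower and 3 higher. The first purine enzyme gene Ppat read -2.34 and -2.33 and Pfas -1.65 and -1.66. Other probes gave -0.46 for Ppat and -0.17 for Pfas. The 54 cytosolic ribosomal protein genes measured had 4 higher and 4 lower and a median of -0.03, but 17 higher, 1 lower and a median of 0.61 under median centring.

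Genes of amino acid and folate metabolism had more lower than higher calls. Of 39 measured genes 15 were lower and 2 higher (median -0.72; 9 and 5 under median centring). After Tdh, the glycine cleavage gene Gldc read -3.71 and -3.70, and the folate cycle genes Shmt1 (-2.06), Mthfd1 (-1.40), Mthfd1l (-1.10) and Mthfd2 (-1.0) fell. The thymidylate synthase gene Tyms (-2.02) fell too, although another of its probes gave 0.02. The serine synthesis genes Phgdh (0.57), Psat1 (-0.37) and Psph (-0.47) were not called. Sdsl, a serine dehydratase-like enzyme (2.69 and 2.63), and Ass1, argininosuccinate synthase (1.84 and 1.95), rose. Of 42 nutrient transporters 4 were higher and 13 lower (8 and 10 under median centring), with the fatty acid transporter gene Slc27a2 at least 23.4-fold lower and the cationic and neutral amino acid carriers Slc7a3 (-3.20 and -3.25) and Slc7a7 (-3.33 and -3.20) next. Another probe of Slc27a2 gave -1.0.

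Respiratory chain genes differed little after loess. Of 35 measured subunits 4 were higher and 2 lower, a share of calls below that of all genes, with a median of 0.16. Ndufb8 (1.26 and 1.38) and Cox7a2 (1.01 and 1.15) were higher. Cox7a1, the muscle-type partner of Cox7a2, was lower (-1.46 and -1.37). Under median centring 12 subunits were called higher and 2 lower, and the list's median was 0.84 beside an all-gene median of 0.19. Of 38 genes for mitochondrial import, dynamics and ribosomes 2 were higher and 5 lower (3 higher and 1 lower under median centring). The lower share was near that of all genes (13.8%). The mitochondrial DNA factor Tfam was at -1.72 and -1.80. With spots marked as outliers kept in and the background fitted over all spots, Tfam was at 1.12 and Ndufb8 at -0.29, neither of them called. Of 45 antioxidant genes 14 were higher and 1 lower (23 higher under median centring), with Ephx1 (3.54 and 3.59), Gpx8 (2.51 and 2.42) and Prdx5 (2.28 and 2.30) up and Txnip (-2.79 and -2.93) down. Of 22 autophagy genes 5 were higher, Wipi1 most (2.66 on both arrays), and none was lower in limma (5 at an unadjusted p under 0.05); under median centring 9 were higher. Of 31 heat shock and proteasome genes 8 were higher and 5 lower (10 and 2 under median centring).

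Of 32 genes of the p53 and senescence list 12 were higher and 5 lower (17 and 1 under median centring). The CDK inhibitor genes Cdkn1a (2.67 and 3.0), Cdkn2b (1.39) and Cdkn2c (1.67) rose. Cdkn2a, which encodes p16 and p19Arf, read 1.93 and 2.81, and this gap between the arrays gave an SE of 0.18. The death receptor gene Fas read 2.64 and 2.57 and the growth factor gene Gdf15 was at 1.79. Trp53 (-0.56), Mdm2 (0.62) and Cdkn1b (-0.48) were not called. Of 33 apoptosis regulators 5 were higher and 5 lower (8 and 2 under median centring), near the shares of all genes (14.0% higher and 13.8% lower). Highest were the necroptosis kinase gene Ripk3 (2.56 and 2.61), the mitochondrial death gene Bnip3 (2.16 and 2.14) and Ripk1 (2.03 and 2.13), a second such kinase. Lowest were the BH3-only genes Bmf (-1.76 and -1.74) and Bik (at least 2.72-fold lower).

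Intermediate filaments, channels and zinc fingers completed the lists. Of 30 lamina and filament genes 4 were higher and 12 lower (8 and 9 under median centring). Desmin (Des) read 1.94 and 2.10 and synemin (Synm) 2.26 and 2.24, and the neurofilament and internexin genes Nefh (-2.61 and -2.59), Ina (at least 4.11-fold lower) and Nefm (-1.08) fell beside Nefl. Other probes of Synm and Nefh gave 0.50 and -0.64. Plec, the plectin linker, read 2.19 and 2.08, but another of its probes was called lower at -1.93, the only such reversal among the 305 genes set by the naming rule. Of 36 channels 11 were higher and 6 lower, with the background potassium channel gene Kcnk1 (-3.19 and -3.01) low and the ATP-sensitive channel gene Kcnj8 (2.06 and 2.17, another probe 0.32) high. With the stricter filter 23 channels remained, 6 higher and 5 lower. Of 30 genes for KRAB zinc fingers and retroelement control 10 were lower and 1 higher (7 and 1 under median centring). The methylation maintenance gene Uhrf1 was at -2.32 and -2.27 and the heterochromatin protein gene Cbx1 at -1.97 on both arrays. By name alone, 59 of 334 genes called Zfp were lower (17.7%) and 20 higher (5.99%), with a median of -0.33. Over all genes 13.8% were lower and 14.0% higher. Under median centring 41 Zfp genes were lower and 28 higher, with a median of -0.13 beside an all-gene median of 0.19. DEAD and DEAH box helicases had 15 of 50 lower and none higher in limma (3 at an unadjusted p under 0.05). Under median centring 10 helicases were lower and 1 higher. Centromere proteins had 13 of 20 lower (8 under median centring).

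The genes of chromosome 11 stood below those of the other autosomes. On mm8 positions, its 1397 tested genes had a median of -0.27 on MEF array 1 and -0.28 on MEF array 2, whereas the other autosomes lay between -0.064 and 0.14. Of its genes 21.1% were called lower and 7.59% higher, against 9.58% to 16.1% lower on the other autosomes. The shift ran along the chromosome: in each of 13 windows of 10 Mb the median was below 0, from -0.36 to -0.05. The iPS clone, over the same ES RNA, had a median of -0.20 on both of its arrays for these genes, and MEFs minus iPS cells had -0.06. With a stricter filter, keeping probes bright in each channel on all 4 arrays, the MEF median was -0.35, and under median centring it was -0.05 beside an all-gene median of 0.19. Of the lists with mostly lower calls, 3 of the 45 replication genes, 4 of the 48 mitosis genes and 6 of the 41 ribosome biogenesis genes lie on this chromosome. The part of this shift in their counts was not tested. Chromosome X had a MEF median of -0.05. The 9 tested genes of chromosome Y had a median of -0.65 in MEFs, with 3 called lower, and of 0.65 in the iPS clone. What this difference on Y reflects was not tested.

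**Figure D4:**
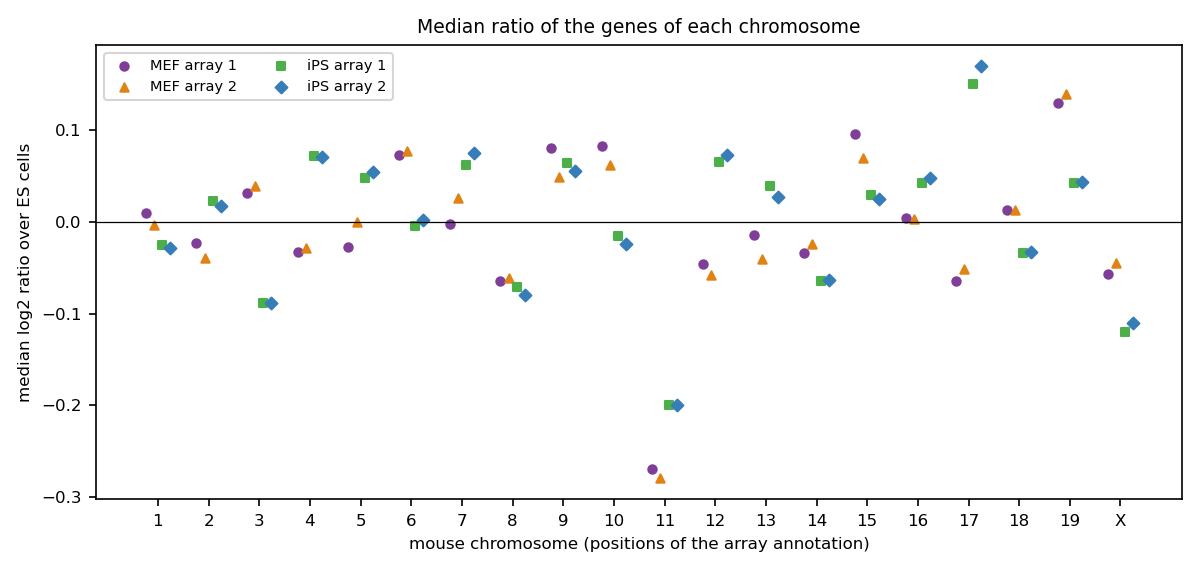
Median log2 ratio over ES cells of the tested genes of each mouse chromosome except Y, on the 2 MEF and 2 iPS arrays. The shared ES RNA is the denominator. Chromosome 11 lies at -0.27 and -0.28 on the MEF arrays and at -0.20 on both iPS arrays, and the other autosomes lie between -0.064 and 0.14 in the MEF fit.

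The difference between MEFs and the iPS clone, taken in the same fit, set the fibroblasts against a second kind of pluripotent cell. Over all genes 19.1% were called higher in MEFs than in iPS cells and 17.1% lower. Replication had 43 of 45 genes lower, mitosis 42 of 48 and repair 36 of 57. The lysosome had 28 of 37 higher, collagen processing 28 of 38, actin and contraction 37 of 45 and caveolae 7 of 8. The clone itself differed from ES cells in the last 2 lists. Over ES RNA it was lower in 26 of the 45 actin genes (median -1.41) and 5 of the 8 caveolae genes (median -1.42), and higher in 0. For Notch the difference had 5 genes higher and 5 lower of 23, and for Wnt 18 higher and 8 lower of 53, where MEFs over ES cells had 7 and 19. The comparisons share MEF arrays, so these counts are set side by side and not tested against each other.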

How the data were processed

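Agilent 2-colour arrays were scanned at 5 micron, and the deposited spot intensity values of both channels come from Agilent Feature Extraction 10.5.1.1 with mm8 annotation, per the file headers. That software also normalised the dyes (LOWESS span 0.25, per the file headers), and its deposited log10 ratios, red to green, served as an alternative. From the mean and background intensities, normexp (offset 50, over spots not marked as outliers) and loess (span 0.3) were computed in limma 3.58.1 (R 4.3.3). Spots were averaged per probe. The 24874 probes well above background in at least 1 RNA, with a value on all 4 arrays, were kept, and the brightest probe stood for each of 17172 genes. One fit held all 4 arrays (2 residual and 4.4 prior degrees of freedom), and Benjamini-Hochberg adjustment ran over all genes. Only 2 arrays limit the precision of each value. "At least" folds set the bright group's mean against the lowest signal well above background. Names came from RefSeq accessions for 24375 probes. The genes, lists and alternatives were chosen with earlier results of these data known. Named by rule were the 15 largest rises and falls and the 4 largest per list and direction; other genes, chosen after their values were seen, are further members of the lists, complexes or families described. Some genes and 1 list are not reported here, though they entered the fit and the counts. The fit was tested on simulated data. Alternatives were other background, normalization, filter and probe rules, single arrays left out and the replicate number as a block.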

Additional observations from a re-analysis of the deposited data

How the results depend on the processing

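The calls of MEFs over ES cells (4767) were sensitive to the background fit. They fell to 177 (92 higher, 85 lower) with normexp fitted over all spots. With that fit and marked spots kept as well, 289 were called (154 higher, 135 lower). Marked spots were kept only together with the fit over all spots, so results named for them below hold both changes. The count stood at 4716, of which 4699 were shared, in a setting added after seeing the data that left out only the spots of extreme background. Processed signals of the scanner software gave 7216 calls (3852 lower) and the deposited ratios 7215 (3849 lower). Median centring gave 5165, of which 1574 were lower, and a 4-fold threshold gave 1435 (768 higher, 667 lower). Without single MEF arrays the count was 4727 to 4867. Same-numbered MEF and iPS arrays deviated with a correlation of -0.123 over 2 pairs, so the numbers do not show pairing; with the replicate block 4767 genes were called, and crossed pairing gave 4767 too. For MEFs minus iPS cells the block gave 6214 and the crossed block 6215. Some list medians near 0 changed sign. Apoptosis regulators were at 0.0145 with normexp over all spots, 0.276 with median centring, 0.0148 with marked spots kept, 0.0105 under the strict filter and 0.197 as a mean over probes. With median centring, immediate early genes were at 0.216, hedgehog at 0.151, mitochondrial import at 0.0821, heat shock at 0.471 and neuron and glia at 0.0215, and with the mean over probes neuron and glia were at 0.105. With marked spots kept and normexp over all spots, immediate early genes were at 0.0181, heat shock at 0.0634, Ndufb8 at -0.29 and Tfam at 1.12. The causes of these sign changes were not tested. Of the 416 genes recomputed singly, 352 lost their call with normexp over all spots, 342 with marked spots kept and 31 with median centring. Signal over background limits genes dim in both RNAs: 435 were tested and 0 were called.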
